A study of Mus musculus with 11 samples.

Results

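Autophagy delivers worn proteins and organelles to the lysosome, and the 10 genes described here encode central parts of that pathway in mouse: the ATG8 proteins Map1lc3a, Map1lc3b, Gabarap and Gabarapl1, the cargo receptors Sqstm1 and Nbr1, the mitophagy receptors Bnip3 and Bnip3l, and the initiation factors Ulk1 and Becn1. They were taken by gene symbol from the deposited table of CPM (read counts scaled to 1000000 per library), which holds 18269 genes. All 10 were found, and all 10 were among the 13187 genes tested. RNA had been sequenced from the tibialis anterior, a shin muscle built mainly of fast fibres, of C57BL/6 mice aged 21 to 24 months, in a study whose protocol refers to an injury model. The mice had been injected with young serum (4 libraries), with young serum labelled as depleted, read here from the study's title as serum without its extracellular vesicles (EVs, small particles that cells shed; 3 libraries), or with saline (4 libraries). All 11 libraries therefore come from old mice, and no young muscle is among them. The labels do not state that each library is a separate animal, so p-values here measure the spread between these libraries, which may be technical.

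When nutrients or energy run low, the kinase ULK1 starts autophagosome formation, and the Beclin 1 complex, a class III PI3-kinase, marks the membrane where the autophagosome grows. ATG8 proteins (the LC3 and GABARAP families) are attached to lipid in that membrane and bind cargo receptors, which in turn hold ubiquitinated proteins (p62, encoded by Sqstm1, and NBR1) or mitochondria (BNIP3 and BNIP3L, also called NIX). In mouse muscle FoxO3 is known to induce several of these genes during atrophy, and loss of autophagy in muscle fibres causes damaged mitochondria and weakness. Transcript levels are not a measure of autophagic flux.

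Sequence just upstream of 5 members is shown so that the promoters of members from each role in the pathway can be read beside their values: Map1lc3b and Nbr1, whose levels varied in opposite directions over the libraries, Gabarapl1, Bnip3 and Ulk1. The sequences are from RefSeq on GRCm38.p6, of the gene's own strand, and end at the base before the RefSeq start or the annotated gene start, whichever lies farther upstream. They cover chr8:121590188-121590360 (+) for Map1lc3b, chr6:129532942-129533159 (+) for Gabarapl1, chr11:101551857-101552106 (+) for Nbr1, chr7:138909520-138909756 (-) for Bnip3 and chr5:110810098-110810331 (-) for Ulk1. Capitals mark matches, on either strand, to the E-box CACGTG or to the core letters ACGTG and GCGTG of sites that hypoxia-inducible factors can bind.
Map1lc3b: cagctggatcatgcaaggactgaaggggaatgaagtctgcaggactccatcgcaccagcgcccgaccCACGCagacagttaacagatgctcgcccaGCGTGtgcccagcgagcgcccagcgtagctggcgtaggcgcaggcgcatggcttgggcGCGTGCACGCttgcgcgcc
Gabarapl1: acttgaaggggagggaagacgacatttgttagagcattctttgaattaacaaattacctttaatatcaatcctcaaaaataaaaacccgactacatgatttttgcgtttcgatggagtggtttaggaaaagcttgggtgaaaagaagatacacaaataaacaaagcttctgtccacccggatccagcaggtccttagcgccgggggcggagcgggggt
Nbr1: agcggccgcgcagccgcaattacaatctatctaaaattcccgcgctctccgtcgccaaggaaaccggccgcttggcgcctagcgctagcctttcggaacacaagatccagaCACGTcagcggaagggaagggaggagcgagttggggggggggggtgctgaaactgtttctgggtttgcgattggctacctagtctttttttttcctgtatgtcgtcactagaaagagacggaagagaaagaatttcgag
Bnip3: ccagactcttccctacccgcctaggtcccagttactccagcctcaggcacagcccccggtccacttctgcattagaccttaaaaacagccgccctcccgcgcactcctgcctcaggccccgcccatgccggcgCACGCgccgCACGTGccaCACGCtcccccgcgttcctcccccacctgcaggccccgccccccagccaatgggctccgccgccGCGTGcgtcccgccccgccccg
Ulk1: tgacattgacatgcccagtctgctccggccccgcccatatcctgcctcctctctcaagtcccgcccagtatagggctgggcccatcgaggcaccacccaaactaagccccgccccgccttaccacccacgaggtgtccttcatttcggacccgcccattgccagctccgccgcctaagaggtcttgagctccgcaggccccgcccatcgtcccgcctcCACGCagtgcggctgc
A set of 4 letter patterns were searched on both strands, and ACGTG lies within CACGTG, so these 2 overlap. CACGTG, a pattern that the lysosomal regulator TFEB and other basic helix-loop-helix factors bind, was found in 6.02% of the 32851 RefSeq windows of 250 bases before a gene's start, and among the 5 sequences in Bnip3, once. ACGTG was found in 16.6% of all windows, GCGTG in 28.2% and the FoxO pattern GTAAACA in 3.17%. These shares are of full windows with at least 1 match. The sequences shown are 173 to 250 bases long and their matches are counted singly, so the values are not on the same footing. Bnip3, a known target of hypoxia-inducible factors, held 3 matches to GCGTG as well, Map1lc3b held 4 and Ulk1 held 1. The 2 matches of Bnip3 to ACGTG, 1 on each strand, lay within its CACGTG. Nbr1 held 1 match to ACGTG, and no match to any of the patterns lay in the Gabarapl1 sequence. GTAAACA was in none of the 5.

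Depth was 36.4 to 42.3 M reads per library (M, 1e+06), as read from the steps between low CPM values, and the least abundant member had at least 1429 reads in every library, a counting error of 2.65%. Skeletal muscle fibre markers (8 of 8 above 1 CPM in all libraries) summed to 148760 to 165835 CPM in young serum libraries, 136527 to 152534 CPM in EV-depleted serum libraries and 133666 to 179842 CPM in saline libraries. A pair of saline libraries stood apart. In saline replicate 6 the summed slow-fibre markers reached 5545 CPM, against 242 to 1652 CPM in young serum libraries, 1420 to 2229 CPM in EV-depleted serum libraries and 256 to 477 CPM in the remaining saline libraries, and red cell markers (5 of 6 listed) reached 1488 CPM, against 89.1 to 250.2 CPM in young serum, 255 to 282 CPM in EV-depleted serum and 191 to 468 CPM in the remaining saline libraries. Of that 1488 CPM, Hbb-bs alone made up 1121 CPM. In saline replicates 6 and 4, Hba-a1 had 155 and 129 CPM and Hba-a2 148 and 139.5 CPM. Hbb-bt had 62.3 and 17.0 CPM there, and Alas2 2.57 and 2.99 CPM. In saline replicate 4 the adipocyte markers summed to 5671 CPM, against 101 to 308 CPM in young serum, 167 to 270.1 CPM in EV-depleted serum and 234 to 515 CPM in the remaining saline libraries, and macrophage markers to 318 CPM, against 48.1 to 144 CPM in young serum, 68.3 to 114 CPM in EV-depleted serum and 119 to 222 CPM in the remaining saline libraries. No marker of any list was at 0. In bulk tissue, fewer cells of a type and less RNA per cell cannot be told apart, and the part of these markers in the results below was not tested; values without saline libraries 4 and 6 stand beside the main ones below.

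Levels of different genes are compared here as CPM per kilobase of merged exons (GENCODE M21). In young serum muscles the most abundant members were Sqstm1, with 243 ± 38.0 CPM per kb (SD, n = 4), and Map1lc3a, with 188 ± 23.3, followed by Bnip3 with 97.3 ± 10.1 and Gabarap with 83.3 ± 6.31. Map1lc3b (30.4 ± 1.74 CPM per kb), Gabarapl1 (23.4 ± 2.33) and Ulk1 (21.7 ± 2.06) formed the next step, and Nbr1 (17.1 ± 1.24), Bnip3l (12.7 ± 1.27) and Becn1 (11.7 ± 0.363) had the lowest levels. EV-depleted serum muscles had the same order, from Sqstm1 (234 ± 19.8 CPM per kb; SD, n = 3) and Map1lc3a (188 ± 64.9) to Bnip3l (13.0 ± 1.88) and Becn1 (12.3 ± 0.417). In saline muscles Map1lc3a came first, at 289 ± 91.1 CPM per kb (SD, n = 4), but did not differ from Sqstm1, at 242 ± 15.3, by more than its own spread, and Bnip3 (132 ± 52.2) and Gabarap (109 ± 18.6) could likewise not be ordered. The order of the remaining 6 was the same in saline as in young serum muscles, with Nbr1 (13.9 ± 2.59) and Bnip3l (13.1 ± 1.23) closer together than their spread.

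**Figure D1:**
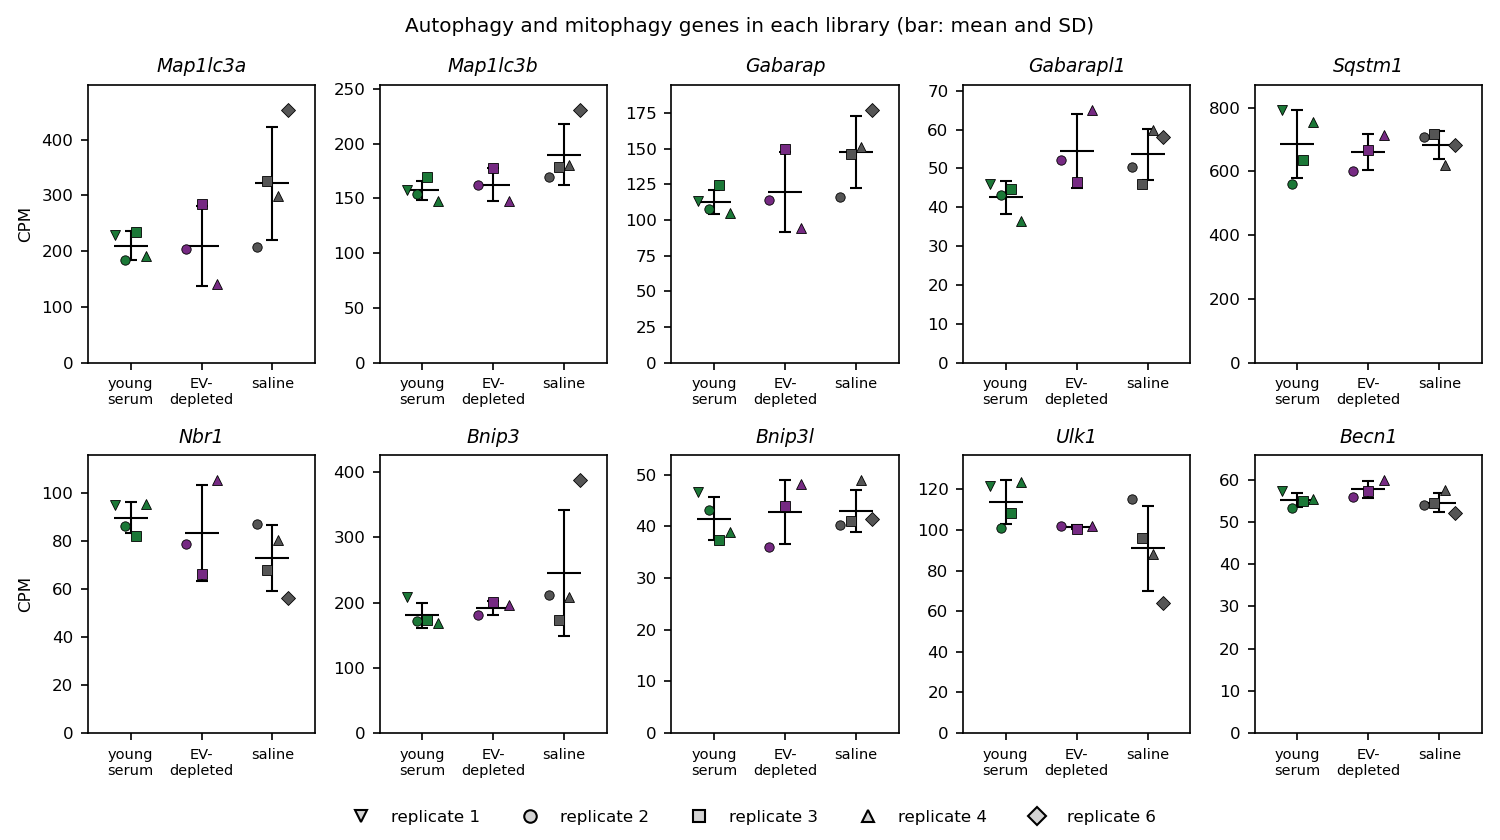
CPM of each of the 10 genes (vertical axes, from 0) in the 4 young serum, 3 EV-depleted serum and 4 saline libraries (horizontal axis); each symbol is 1 library, its shape the replicate number, and the lines give the mean and SD. Saline replicate 6 is the highest of all libraries for Map1lc3a (454 CPM), Map1lc3b, Gabarap and Bnip3 (388 CPM), and the lowest for Nbr1, Ulk1 and Becn1.

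Between young serum and saline, none of the 10 genes passed the adjusted threshold (limma, Benjamini-Hochberg adjusted p under 0.05), and neither did any of the 13187 genes, a background of 0%. The smallest adjusted p over all genes was 0.0767. At an unadjusted p under 0.05, 5 of the 10 members passed, 4 lower (Map1lc3a, Map1lc3b, Gabarap, Gabarapl1) and 1 higher (Ulk1) in young serum muscles, against 21.9% of all genes tested, 11.4% lower and 10.5% higher. By sign alone, 7 members were lower and 3 higher (Sqstm1, Bnip3l and Becn1 within 0.05 of 0), with a median log2 difference of -0.15, beside -0.02 over all genes tested.

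Of the ATG8 genes, Map1lc3a (chr2:155276297-155278073, + strand, mm10), which encodes LC3A, had 228, 184, 235 and 191 CPM in young serum libraries 1 to 4, against 208, 325, 299.5 and 454 CPM in saline libraries 2, 3, 4 and 6. Saline library 2 lay within the young serum range, and the other 3 saline libraries lay above it. The log2 difference was -0.57 ± 0.24 (SE; 95% interval -1.10 to -0.04), 0.674-fold, with an adjusted p of 0.211 (limma) and an exact permutation p of 0.0857. Gabarap (chr11:69991143-69994951, + strand), whose protein also acts in receptor trafficking, had 113, 108, 124 and 105 CPM in young serum libraries and 116, 146, 151 and 177 CPM in saline libraries. Again only saline library 2 fell within the young serum range. Its log2 difference was -0.38 ± 0.16 (95% interval -0.72 to -0.04), with an adjusted p of 0.205 (limma).

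Map1lc3b (chr8:121590361-121598760, + strand) encodes LC3B, the form most often followed as an autophagosome marker. It had 157.8, 154.3, 169.4 and 148.0 CPM in young serum libraries, against 169.7, 179.0, 180.2 and 231.0 CPM in saline libraries. The groups did not overlap, but the gap between them ran only from 169.4 to 169.7 CPM. Map1lc3b was the only member whose groups did not overlap in this comparison, against 12.2% of all genes tested. On the log2 scale the difference was -0.26 ± 0.11 (95% interval -0.51 to -0.01), 0.834-fold, with an adjusted p of 0.214 (limma) and an exact permutation p of 0.0286, the smallest that 4 against 4 libraries can give. Gabarapl1 (chr6:129533160-129542346, + strand), a GABARAP paralogue that FoxO factors induce in muscle, had 46.1, 43.1, 44.7 and 36.5 CPM in young serum libraries, against 50.4, 45.9, 60.0 and 58.1 CPM in saline libraries. The groups overlapped through young serum library 1 and saline library 3. The log2 difference was -0.32 ± 0.13 (95% interval -0.62 to -0.03), with an adjusted p of 0.205 (limma).

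The cargo receptors did not share a direction. Sqstm1 (chr11:50199366-50210827, - strand), which encodes p62, had 794, 561, 637 and 755 CPM in young serum libraries and 708, 717, 622 and 684 CPM in saline libraries. The young serum libraries held both the highest and the lowest value of all 11, and the saline values lay between them. Its log2 difference was -0.00 ± 0.12 (95% interval -0.27 to 0.26; limma adjusted p = 0.991). Nbr1 (chr11:101552149-101581951, + strand), a p62-related receptor that also binds the sarcomere protein titin, had 94.7, 86.1, 82.0 and 95.1 CPM in young serum libraries, against 86.8, 67.7, 80.3 and 56.3 CPM in saline libraries. Saline library 2 lay within the young serum range and the other 3 below it, the mirror of Map1lc3a and Gabarap. This was a log2 difference of 0.31 ± 0.16 (95% interval -0.04 to 0.67; limma adjusted p = 0.272).

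Of the mitophagy receptors, Bnip3 (chr7:138890836-138909519, - strand), which recruits ATG8 proteins to the outer mitochondrial membrane, had 209, 171, 173 and 170 CPM in young serum libraries, against 211, 173, 208 and 388 CPM in saline libraries. Apart from saline library 6, the saline values ran from 173 to 211 CPM and largely overlapped those of young serum. The log2 difference was -0.37 ± 0.20 (limma adjusted p = 0.289) with all libraries, and -0.13 without saline library 6. Bnip3l (chr14:66985239-67008877, - strand), best known for clearing mitochondria from maturing red cells, had 46.6, 43.1, 37.5 and 38.8 CPM in young serum libraries and 40.2, 41.1, 48.9 and 41.5 CPM in saline libraries. Its groups were interleaved, and the log2 difference was -0.05 ± 0.12 (95% interval -0.31 to 0.22; limma adjusted p = 0.836).

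Of the initiation factors, Ulk1 (chr5:110784488-110810097, - strand) had 122, 101, 108 and 123 CPM in young serum libraries, against 115, 96.2, 87.9 and 64.2 CPM in saline libraries. Saline library 2 lay within the young serum range and the other 3 below it. This gave a log2 difference of 0.35 ± 0.15 (95% interval 0.01 to 0.68), 1.27-fold, with an adjusted p of 0.220 (limma) and an exact permutation p of 0.114. Becn1 (chr11:101285952-101302286, - strand) had 57.4, 53.3, 55.0 and 55.4 CPM in young serum libraries and 54.1, 54.6, 57.6 and 52.2 CPM in saline libraries. It was the steadiest of the 10: its highest and lowest libraries of the 11 differed 1.15-fold, against 3.23-fold for Map1lc3a, and its SD over the libraries stood at the 0.0379 percentile of all genes tested. Its log2 difference was 0.02 ± 0.08 (95% interval -0.16 to 0.20; limma adjusted p = 0.921).

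Saline library 6 set part of the size of these differences, a smaller part for Gabarapl1 than for the other genes listed next. Without it, the log2 difference of Map1lc3a between young serum and saline was -0.39, of Map1lc3b -0.16, of Gabarap -0.28, of Gabarapl1 -0.28, of Nbr1 0.20 and of Ulk1 0.19, and the number of members at an unadjusted p under 0.05 was 0. The share of all genes at that p in this fit is not given here. Without saline libraries 4 and 6 together the values were -0.32 for Map1lc3a, -0.15 for Map1lc3b, -0.21 for Gabarap, -0.18 for Gabarapl1, 0.22 for Nbr1 and 0.11 for Ulk1, again with 0 members at an unadjusted p under 0.05. Of all 13187 genes tested, 1277 were at that p without these libraries, so 0 of 10 members is not far from the background. A limma fit that weights each library by its estimated quality, in which saline libraries 4 and 6 had the lowest weights (0.208 and 0.295), called 3 members: Map1lc3a (-0.60, adjusted p = 0.0186), Gabarap (-0.36, adjusted p = 0.0292) and Nbr1 (0.34, adjusted p = 0.0339). That fit called 3441 genes in all, and the estimate of its weights stopped before convergence.

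**Figure D2:**
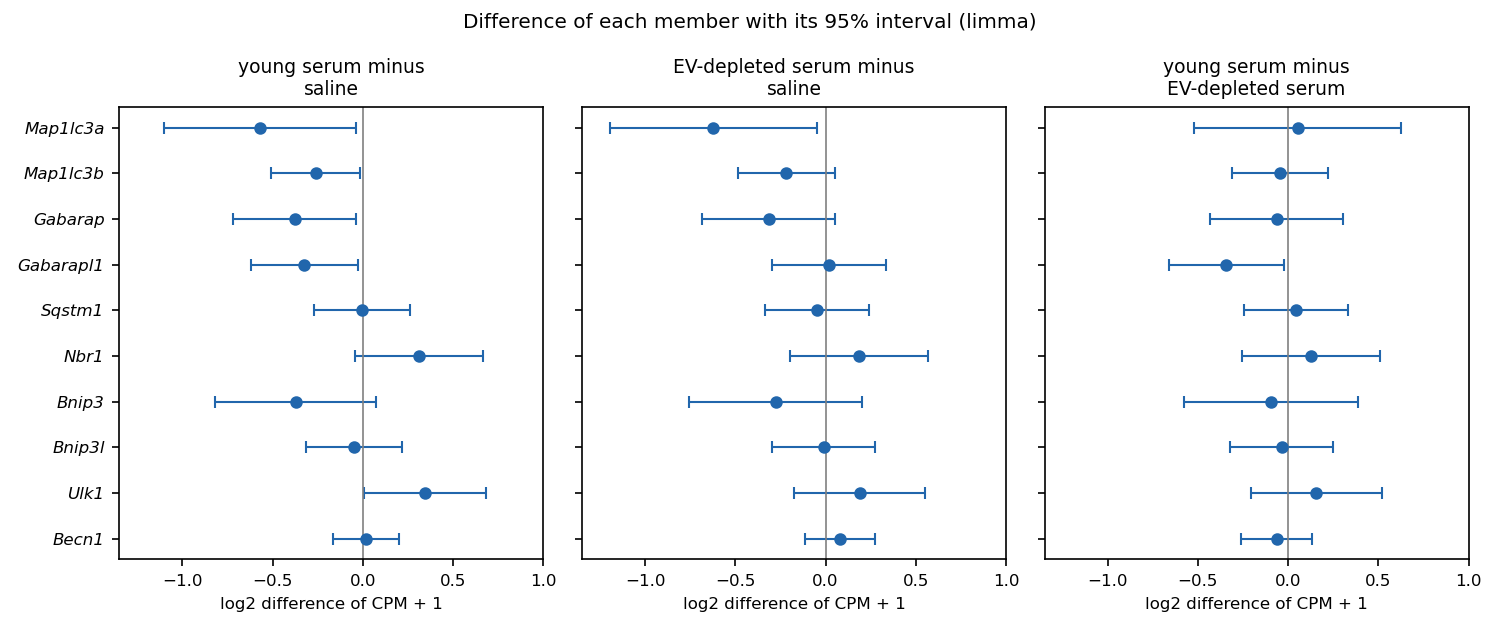
Log2 difference of CPM + 1 for each of the 10 genes (points) with its 95% interval from limma (bars), for young serum minus saline, EV-depleted serum minus saline, and young serum minus EV-depleted serum. Intervals leave out 0 for 5 genes in the first panel and for 1 gene each in the other panels (Map1lc3a and Gabarapl1), before adjustment over all genes tested.

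EV-depleted serum against saline uses the same 4 saline libraries, so its values are not independent of those above. No member and no gene of the 13187 passed the adjusted threshold (a background of 0%, smallest adjusted p 0.0684 by limma). Map1lc3a alone was at an unadjusted p under 0.05, against 12.1% of all genes tested, and no member had groups that did not overlap, against 7.42% of all genes. Map1lc3a had 203, 284 and 140.5 CPM in EV-depleted serum libraries 2, 3 and 4, against 208 to 454 CPM in saline libraries. Library 4 of EV-depleted serum held the lowest Map1lc3a value of all 11 libraries and library 3 a value within the saline range. The log2 difference was -0.62 ± 0.26 (95% interval -1.19 to -0.05; limma adjusted p = 0.404), and it ranged from -0.87 without EV-depleted serum library 3 to -0.36 without EV-depleted serum library 4; without saline libraries 4 and 6 it was -0.37.

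Map1lc3b had 163, 178 and 148 CPM and Gabarap had 114, 149.7 and 94.6 CPM in EV-depleted serum libraries, with log2 differences from saline of -0.22 (adjusted p = 0.442) and -0.31 (adjusted p = 0.435; limma). Without saline libraries 4 and 6 these were -0.10 and -0.15. For both, library 4 was again the lowest and library 3 the highest of the group. Gabarapl1 ran the other way among these libraries, with 52.2, 46.4 and 65.1 CPM, the highest value of all 11 being that of library 4. Its log2 difference from saline was 0.02 ± 0.15 (limma adjusted p = 0.957), and 0.16 without saline libraries 4 and 6.

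Among the receptors and initiation factors, Sqstm1, Bnip3l and Becn1 had the smallest differences between EV-depleted serum and saline muscles. Sqstm1 had 602, 667 and 714 CPM, Bnip3l 36.1, 43.9 and 48.2 CPM and Becn1 56.0, 57.4 and 59.9 CPM, with log2 differences of -0.05, -0.01 and 0.08. Nbr1 had 78.6, 66.1 and 105 CPM, a wider spread than in young serum muscles, and a log2 difference of 0.18 (limma adjusted p = 0.614). Ulk1 had 102.1, 100.5 and 102.0 CPM, the tightest group of any member, and a log2 difference of 0.19, which was 0.03 without saline library 6 and -0.051 without saline libraries 4 and 6. Bnip3 had 180.3, 200.9 and 195.9 CPM, with a log2 difference of -0.28 and, without saline library 6, of -0.03; without saline libraries 4 and 6 it was 0.0084.

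Young serum against EV-depleted serum compares the intact serum with the serum labelled as depleted. The labels do not say what the depletion removed besides vesicles, so a difference cannot be assigned to vesicles alone. No member and no gene passed the adjusted threshold (a background of 0%), and the adjusted p was 1 for every member (limma). At an unadjusted p under 0.05 there was 1 member, Gabarapl1, against 2.23% of all genes tested. Gabarapl1 had 36.5 to 46.1 CPM in young serum libraries and 46.4 to 65.1 CPM in EV-depleted serum libraries. The groups did not overlap, against 6.11% of all genes, with 46.1 and 46.4 CPM at the inner edges. On the log2 scale young serum differed by -0.34 ± 0.15 (95% interval -0.66 to -0.02), 0.789-fold, with an exact permutation p of 0.0286, the smallest that 4 against 3 libraries can give. It was -0.45 without EV-depleted serum library 3 and -0.21 without EV-depleted serum library 4, the ends of its range when libraries were left out in turn.

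For the other 9 members the log2 differences between young serum and EV-depleted serum ran from -0.09 (Bnip3) to 0.16 (Ulk1). The intervals were narrowest for Becn1 (-0.26 to 0.13) and widest for Map1lc3a (-0.52 to 0.62), so for Map1lc3a a difference of that size in either direction cannot be told from none. The 95% interval of Map1lc3b was -0.31 to 0.22, that of Sqstm1 -0.24 to 0.33 and that of Bnip3l -0.32 to 0.25.

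Across all 11 libraries 3 of the ATG8 genes varied together and Nbr1 ran against them. Among the 45 pairs of members, 6 passed Benjamini-Hochberg adjustment over the pairs by both Pearson's r and Spearman's rho of log2(CPM + 1), tested with 100000 permutations of the libraries, and these were all the pairs among Map1lc3a, Map1lc3b, Gabarap and Nbr1. The other 6 members were in no pair that passed by both measures. The share of all gene pairs that would pass is not given here, and the permutations moved libraries across the injection groups. Genes outside the pathway reached higher values, with r = 0.99 for Map1lc3b with each of Nop10, Psmb4 and Ndufa2. The pairs are therefore not shown to be particular to autophagy genes. Map1lc3a and Gabarap varied together with r = 0.97 (permutation p = 2e-05, adjusted 0.0003) and rho = 0.94 (permutation p = 8e-05, adjusted 0.0012). Map1lc3b varied with Gabarap at r = 0.93 and rho = 0.98 (permutation p = 1e-05 for each, the smallest these permutations can give; adjusted 0.0003 and 0.00045) and with Map1lc3a at r = 0.93 and rho = 0.94 (permutation p = 2e-05 and 7e-05; adjusted 0.0003 and 0.0012). The correlation of Nbr1 with Gabarap was r = -0.92 and rho = -0.86 (permutation p = 7e-05 and 0.00121; adjusted 0.00063 and 0.0136), with Map1lc3b r = -0.90 and rho = -0.84 (permutation p = 7e-05 and 0.00217; adjusted 0.00063 and 0.0195) and with Map1lc3a r = -0.90 and rho = -0.79 (permutation p = 0.00027 and 0.00537; adjusted 0.00202 and 0.0403). Without the 2 libraries farthest from the median of the ATG8 gene of a pair (Map1lc3a where present, otherwise Map1lc3b where present), r was 0.95 for Map1lc3a with Gabarap, 0.93 for Map1lc3b with Gabarap, 0.87 for Map1lc3a with Map1lc3b, and -0.94, -0.78 and -0.73 for Nbr1 with Gabarap, Map1lc3b and Map1lc3a.

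**Figure D3:**
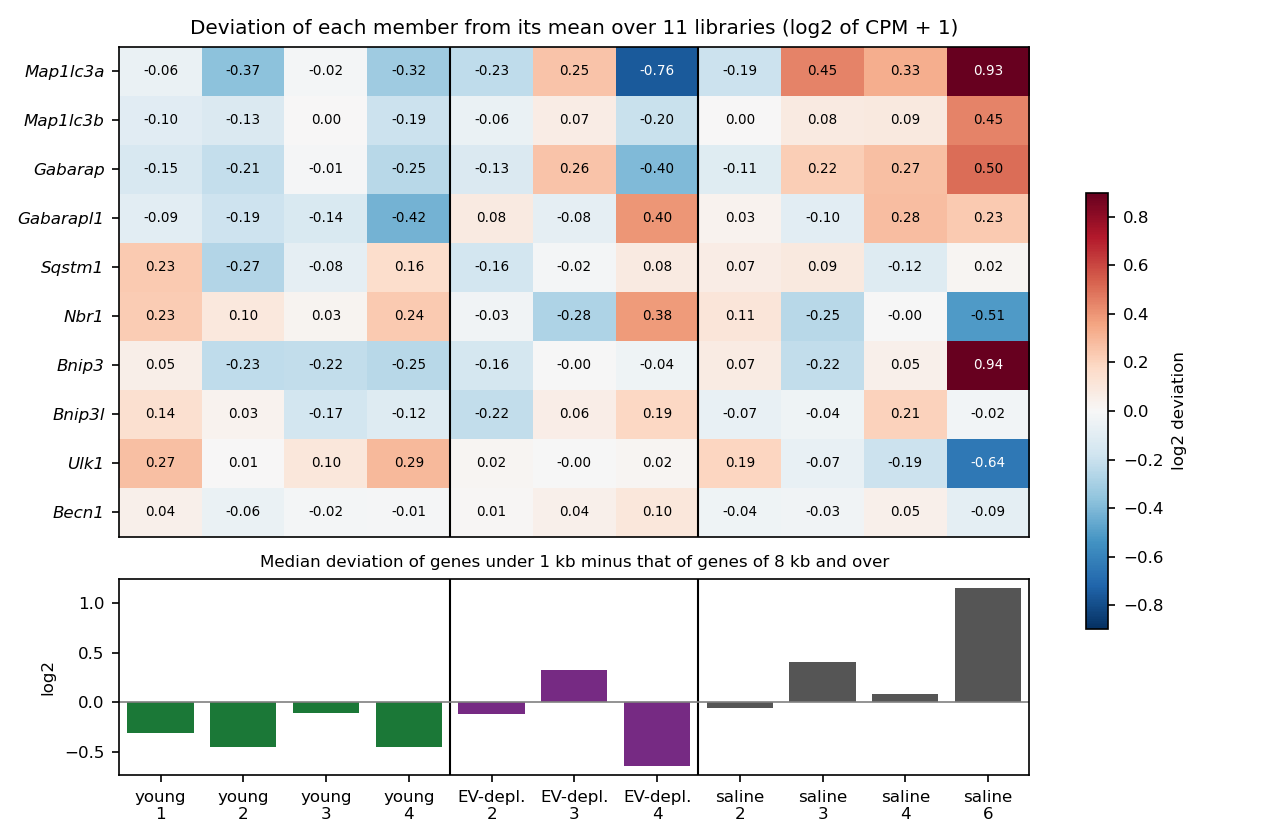
Upper panel: deviation of each of the 10 genes (rows) from its own mean over the 11 libraries, in log2 of CPM + 1 (colour and printed value; columns are libraries, grouped by injection). Lower panel: bars give, for each library, the median deviation of genes under 1 kb of exon minus that of genes of 8 kb and over; it is highest in saline library 6 (1.15) and lowest in EV-depleted serum library 4 (-0.65), the libraries at the ends of the Map1lc3a row.

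Differences from saline varied with merged exon length over all genes. Merged exon lengths were available for 12946 of the genes tested (98.2%), and the median log2 difference of young serum from saline was -0.41 for the 1044 genes under 1 kb, -0.26 for the 2460 genes of 1 to 2 kb, -0.04 for the 4649 genes of 2 to 4 kb, 0.16 for the 3910 genes of 4 to 8 kb and 0.36 for the 883 genes of 8 kb and over. For EV-depleted serum against saline the same medians were -0.28, -0.19, -0.02, 0.14 and 0.29, with the same saline libraries. Without saline libraries 4 and 6 the medians were -0.19, -0.12, 0.03, 0.18 and 0.32 for young serum and -0.071, -0.046, 0.05, 0.15 and 0.23 for EV-depleted serum. Of the members, Map1lc3a (1.112 kb), Gabarap (1.351 kb), Gabarapl1 (1.820 kb) and Bnip3 (1.855 kb) are short, and Becn1 (4.716 kb), Map1lc3b (5.182 kb), Nbr1 (5.227 kb) and Ulk1 (5.231 kb) long. Map1lc3b and Nbr1 are in the same length class, and their levels varied in opposite directions over the libraries. These classes use exons merged over a gene's annotated transcripts, not the length of the transcript expressed. Relative to the median of genes of their own length class, the difference of young serum from saline was -0.12 for Gabarap and -0.06 for Gabarapl1. On the same scale it was -0.11 for Bnip3, -0.15 for Becn1, 0.15 for Nbr1, 0.18 for Ulk1, 0.04 for Sqstm1 and -0.01 for Bnip3l. In EV-depleted serum against saline, Gabarapl1 was 0.21 above the median of its class. Map1lc3b and Map1lc3a lay farther from their classes, at -0.42 and -0.31, and at -0.35 and -0.44 in EV-depleted serum against saline. The contrast between short and long genes per library was -0.45 to -0.11 in young serum libraries, -0.65 to 0.33 in EV-depleted serum libraries and -0.06 to 1.15 in saline libraries. The part of exon length in these results was not tested.

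**Figure D4:**
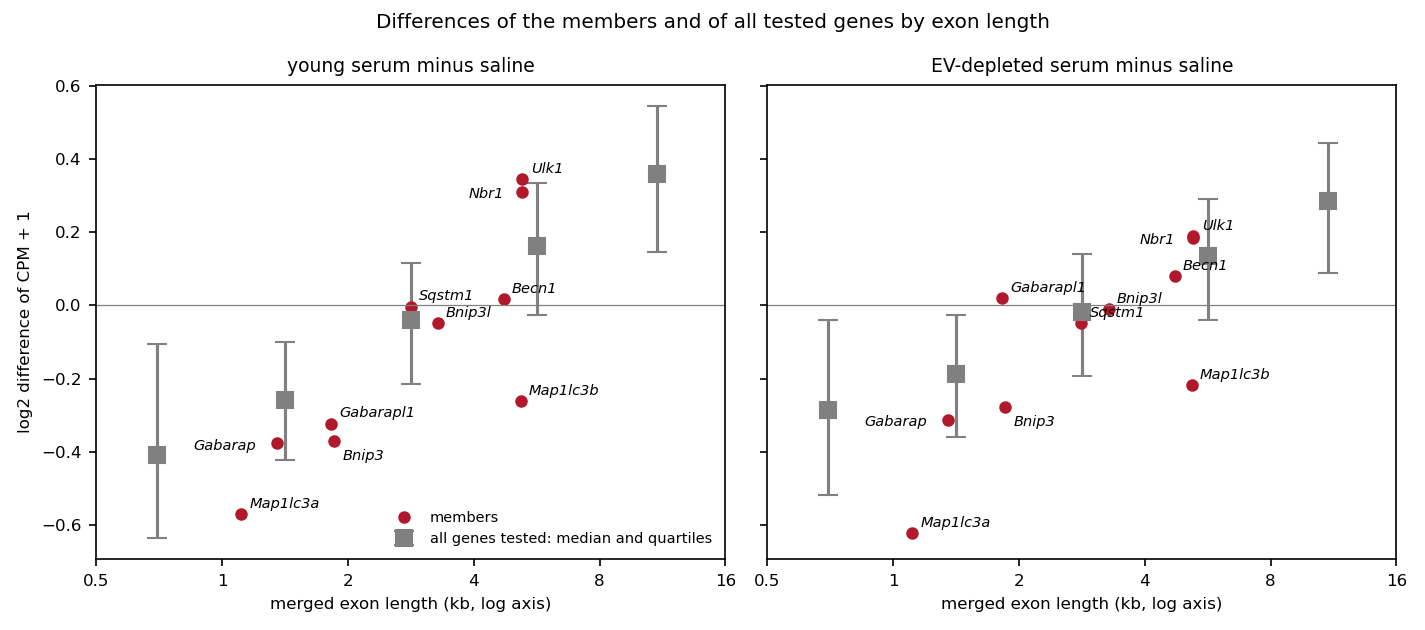
Log2 difference of CPM + 1 (vertical axis) against merged exon length in kb (horizontal log axis) for the 10 genes (red points) and, in grey, the median and quartiles of all genes tested in 5 length classes. The grey medians climb from -0.41 under 1 kb to 0.36 at 8 kb and over for young serum minus saline. There Map1lc3b and Map1lc3a lie farthest below the median of their class (by -0.42 and -0.31) and Ulk1 farthest above (by 0.18). For EV-depleted serum minus saline, Map1lc3a lies farthest below (by -0.44) and Gabarapl1 farthest above (by 0.21).

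For each member the 3 genes with the most similar profile over the 11 libraries were listed, by Pearson's r as a description; the libraries share the length pattern above. Map1lc3a was most like Rabac1 (r = 0.98), Fkbp8 (0.97), which encodes another mitophagy receptor, and Gabarap (0.97), the only member to appear among another's closest genes. Map1lc3b was most like Nop10, Psmb4 and Ndufa2 (0.99 each), which encode a nucleolar, a proteasome and a respiratory complex I protein. Grcc10 and Eef1d (0.98 each) were among the closest genes of Gabarap, and Gabarapl1 was most like Mrpl50 (0.95), Sf3a3 (0.94) and Ssbp1 (0.93). Nbr1 had Parm1, Tnpo1 and Vcl (0.98 each) as closest genes and Ulk1 had Rbm24 (0.98), Reep1 (0.95) and Gpr157 (0.95). Bnip3 was closest to Drg1 (0.98), Cript (0.97) and Fopnl (0.97), Bnip3l to Tmem237 (0.92), Eapp (0.91) and Sec22b (0.90), and Becn1 to Dynll2 (0.95), Trim41 (0.95) and Leo1 (0.91). Sqstm1 had the least similar neighbours, Anxa7 (0.85), Hoxa11 (0.83) and Cyb5r1 (0.82).

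Annotated genes overlap 5 members, and no source used here says whether counting used strand. Map1lc3b overlaps Zcchc14 on the opposite strand (12.9 to 34.0 CPM), Gabarapl1 overlaps 1700101I11Rik (0.111 to 0.654 CPM), Sqstm1 overlaps Mrnip (0.931 to 1.96 CPM) and Bnip3 overlaps Gm45507 (at most 0.199 CPM). Becn1 overlaps Cntd1, which was not analysed here. On the same strand, Map1lc3b overlaps Gm20388, which was not analysed here, and Gabarapl1 overlaps Gm44243 (at most 0.337 CPM). The pseudogene Gm18258, also not analysed here, overlaps Bnip3 on the opposite strand. Reads of the overlapping genes may have been shared between them.

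The wider pathway was described with 89 further genes in 9 lists, all tested in the same fit. None passed the adjusted threshold in any of the 3 comparisons (limma). At an unadjusted p under 0.05, 25 of the 89 passed between young serum and saline, 17 higher and 8 lower, against 21.9% of all genes; 11 passed between EV-depleted serum and saline (9 higher, 2 lower; 12.1% of all genes) and 1 between young serum and EV-depleted serum (2.23%). Over the 89 genes the median log2 difference from saline was 0.05 for young serum and 0.05 for EV-depleted serum, beside -0.02 and -0.00 over all genes tested.

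Of the 12 upstream regulators 10 were higher and 2 lower in young serum than in saline muscles, with a median log2 difference of 0.42. The list mixes genes that promote autophagy, such as Foxo3, with genes that restrain it, such as Foxk1 and Mtor. Its counts of higher and lower genes therefore do not give a direction for autophagy. Over all genes tested 47.5% were higher, as were 71.9% of genes of 4 to 8 kb of exon and 86.5% of genes of 8 kb and over. Of the 7 genes of the class III PI3-kinase complex 6 were higher, with a median of 0.29. The partners of Ulk1 in initiation, 4 genes, had 3 higher and a median of 0.42. Without saline libraries 4 and 6 the upstream regulators had 12 of 12 higher and a median of 0.30, the class III complex 6 of 7 and 0.23, and the initiation genes 3 of 4 and 0.30. In that fit 7634 of the 13187 genes tested were higher. So were 81.9% of genes of 4 to 8 kb and 92.3% of genes of 8 kb and over. Named by their unadjusted p, Foxk1, a repressor of autophagy genes in mouse muscle cells, had 37.9 ± 4.81 CPM in young serum and 23.1 ± 5.45 CPM in saline muscles (SD, n = 4 each; log2 difference 0.71). Mtor, the kinase that holds ULK1 inactive, had 42.6 ± 5.21 and 28.6 ± 5.37 CPM (0.57) in young serum and saline muscles. Uvrag, a Beclin 1 partner, had 15.4 ± 1.13 and 11.3 ± 1.42 CPM (0.42), and Atg13, the ULK1 adaptor, 52.0 ± 5.86 and 39.0 ± 3.57 CPM (0.41) in young serum and saline muscles. The adjusted p of each of these 4 genes was 0.18 (limma). Median exon lengths were 7.49 kb for the upstream regulators, 5.08 kb for the class III complex and 4.70 kb for the initiation genes, against 3.20 kb over all genes tested.

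Of 18 lysosomal genes, 16 were lower in young serum than in saline muscles (median -0.24) and 16 were lower in EV-depleted serum than in saline muscles (median -0.22). Over all genes tested 52.5% and 50.4% were lower. The lysosomal genes had a median exon length of 2.35 kb, and in young serum against saline 14.4% of genes of 1 to 2 kb and 43.7% of genes of 2 to 4 kb were higher. Without saline libraries 4 and 6, of which the first had the highest adipocyte and macrophage markers, the lysosomal medians were -0.09 and -0.10, with 13 of 18 lower in each, while all genes had medians of 0.05 and 0.06. Of the 13187 genes tested, 5553 and 5072 were lower. In that fit 24.9% and 40.0% of genes of 1 to 2 kb were higher, and 56.1% and 59.9% of genes of 2 to 4 kb. The ATG8 conjugation genes (11) had medians of -0.00 for young serum and 0.06 for EV-depleted serum against saline, the other cargo receptors (11) 0.08 and 0.20, the other mitophagy genes (9) 0.04 and 0.05, the fusion genes (8) 0.17 and 0.09, and the membrane supply genes (9) 0.14 and -0.01.

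In EV-depleted serum against saline the genes named were Wipi1, which reads the PI3-kinase product on the growing membrane, Uvrag, the mitophagy receptor Bcl2l13, and Atg13. Wipi1 had 58.2, 50.8 and 65.8 CPM in EV-depleted serum libraries, against 46.3, 36.7, 39.5 and 42.4 CPM in saline libraries (log2 difference 0.49, limma adjusted p = 0.328). Its groups did not overlap, as held for 6 of the 89 wider genes and 7.42% of all genes tested. Uvrag had a log2 difference of 0.44 (adjusted p = 0.370), Bcl2l13 of 0.43 and Atg13 of 0.38 (adjusted p = 0.391 for each; limma). In young serum against EV-depleted serum they were Ddit4, an mTOR inhibitor induced by stress, Stbd1, a glycogen receptor, Atg9a and Foxk1. Ddit4 had 10.1, 22.5, 11.7 and 7.39 CPM in young serum libraries, against 7.18, 6.15 and 5.57 CPM in EV-depleted serum libraries (log2 difference 0.83, limma adjusted p = 1). The groups did not overlap, as held for 7 of the 89 wider genes and 6.11% of all genes tested. Their inner edges were 7.39 and 7.18 CPM, and young serum library 2 held the highest value. Wipi1 and Ddit4 were named for their small unadjusted p, so their lack of overlap is not separate support. The log2 difference of Stbd1 was -0.35, of Atg9a 0.20 and of Foxk1 0.37.

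**Figure D5:**
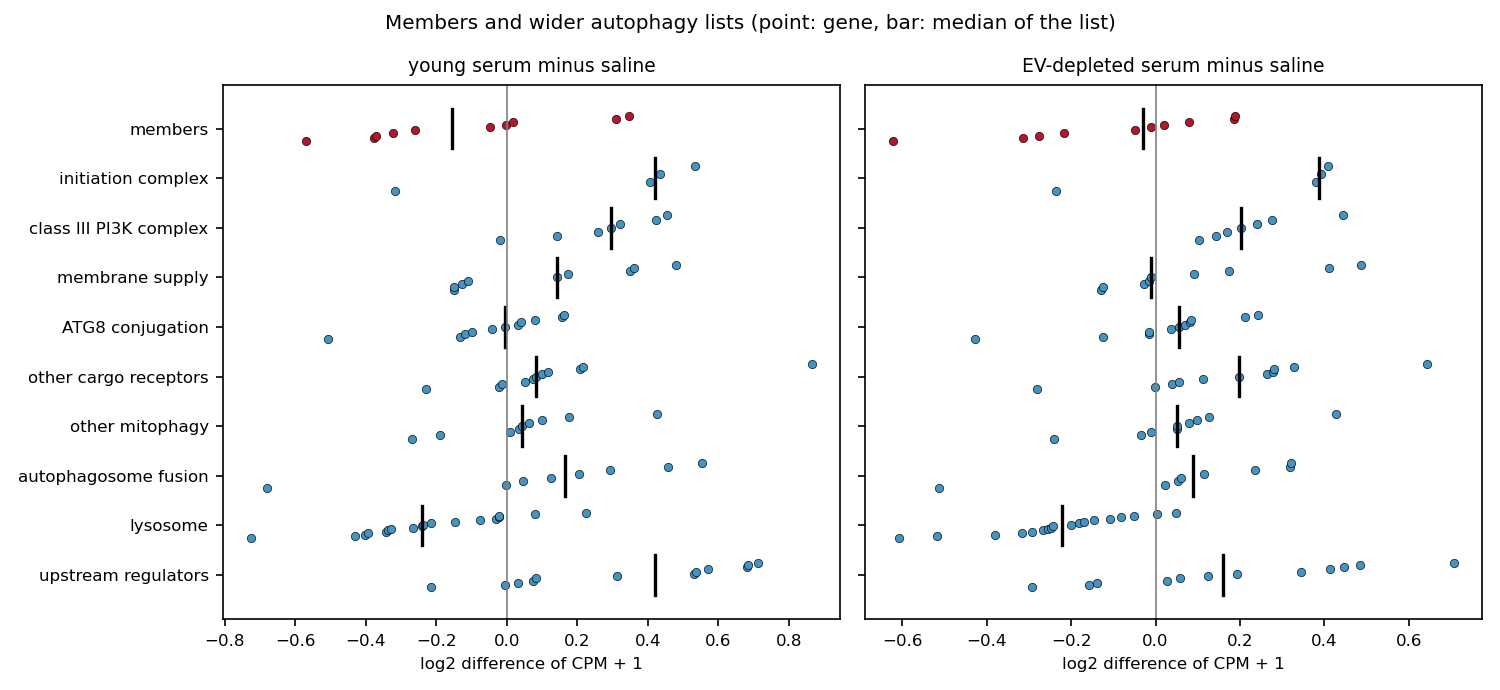
Log2 difference of CPM + 1 of each gene (points) and the median of its list (bars) for the 10 genes and the 9 wider lists, for young serum minus saline and EV-depleted serum minus saline. In both panels 16 of 18 lysosomal genes lie left of 0, while 10 and 9 of 12 upstream regulators lie right of it.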

How the data were processed

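The authors deposited a CPM table and a TPM table. CPM were read counts scaled to 1000000 per library over 18269 genes, with an offset of 0.0001, as the values show. Within each library, TPM was proportional to CPM divided by each gene's genomic span (ratio constant to a coefficient of variation of at most 0.000346%). The factor differed between libraries. TPM summed to a mean of 288820 per library. CPM was used; TPM only for an alternative scaling. Per the submitters' processing notes, FastQC, STAR and DESeq2 were used with mm10; versions and roles are not stated there. Of the low CPM values 75.3% to 78.8% were whole reads within 0.1 reads, too few to rebuild counts, so no count model was fitted.

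A gene was tested if 3 or more libraries reached 1 CPM (13187; 5082 removed). A linear model of log2(CPM + 1) over all 11 libraries was fitted with limma 3.58.1 (R 4.3.3; eBayes with trend), each injection a group; a pseudocount of 1 understates changes of low genes. Tests were two-sided with Benjamini-Hochberg adjustment at 0.05. Exact permutation tests over libraries allow no p below 0.0286. The fit was also run on simulated data with independent normal noise and, for each gene, the same spread in every library. Those data lacked the length pattern and the outlying saline libraries, so they cannot speak to the calibration of the p-values here. Exon lengths are of merged exons in GENCODE M21, and gene starts matched it for 10 of 10 members. Figures were drawn with matplotlib 3.10.9. The members and lists were chosen with earlier results of these data known. All 10 members are described; of the wider lists up to 4 genes per comparison with the smallest unadjusted p are named, and per member the 3 genes with the highest r, of which 1 is not reported here. Alternatives were pseudocount, filter, scaling, groups in the fit, library weights, a replicate block, and leaving libraries out. RefSeq promoters matched 7 of 10 members.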

Additional observations from a re-analysis of the deposited data

Results flagged for a closer look

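In 20 groups of 4 libraries (10 genes, young serum and saline), the highest or lowest library was set against the rest of its group; a group stands out where that library's gap to its nearest neighbour exceeds Dixon's 95% critical share of the group's range, which chance gives in about 1 of 20 groups. Bnip3 in young serum library 1 had 208.6 CPM, against 169.5 to 172.7 CPM in the other young serum libraries. Bnip3l in saline library 4, the library with the highest adipocyte and macrophage markers, had 48.93 CPM, against 40.2 to 41.5 CPM in the other saline libraries. Neither value was removed.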

How the results depend on the processing

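No member passed the adjusted threshold in any comparison with pseudocount 0.1, without the filter, with median-of-ratios scaling, with only the 2 groups compared, without saline libraries 4 and 6, with the scaling of the TPM table (an alternative chosen after seeing the data) or without any single library. Library weights called 3 members and 24 wider genes between young serum and saline, and 1 member (Map1lc3a) and 10 wider genes between EV-depleted serum and saline; the cause was not tested. The share of all genes called between EV-depleted serum and saline is not given here. These calls are therefore not shown to be particular to autophagy genes. Leaving out libraries in turn gave 0 to 1 wider genes between young serum and saline, the 1 being Bcl2l13 (0.54, limma adjusted p = 0.0459) without saline library 2. The number of members at an unadjusted p under 0.05 between young serum and saline was 5, and from 0 to 6 over the alternatives. For most alternatives the share of all genes at that p is not given here. With the replicate number as a block, 0 members passed the adjusted threshold in each comparison and 0 were at an unadjusted p under 0.05 between young serum and saline, and 6 genes passed between EV-depleted serum and saline; same-numbered libraries correlated from -0.28 to 0.30 over 9 pairs, so the numbers were not taken to pair them.

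Some differences changed sign, none of them called. For young serum against saline, Becn1 was -0.0032 with median-of-ratios scaling and -0.022 with the block, Bnip3l 0.025 without saline libraries 4 and 6 and 0.020 with the TPM scaling, and Sqstm1 0.067 with the TPM scaling; leaving out libraries in turn, Sqstm1 ranged from -0.077 to 0.090, Bnip3l from -0.10 to 0.015 and Becn1 from -0.0040 to 0.042. For EV-depleted serum against saline, Gabarapl1 was -0.016 with median-of-ratios and -0.034 with TPM scaling, and without saline libraries 4 and 6 Bnip3 was 0.0084 (main value -0.28), Bnip3l 0.062 and Ulk1 -0.051 (main value 0.19); leaving out libraries, Gabarapl1 ranged from -0.11 to 0.13, Sqstm1 from -0.10 to 0.017 and Bnip3l from -0.10 to 0.10. For young serum against EV-depleted serum, Bnip3l was 0.12 with library weights and Sqstm1 -0.030 with the block. There the TPM scaling moved the median of all genes by 0.11, and Map1lc3b was 0.079, Gabarap 0.060, Bnip3 0.029, Bnip3l 0.084 and Becn1 0.059, each below that shift. Leaving out libraries, Map1lc3a ranged from -0.20 to 0.30, Map1lc3b from -0.11 to 0.021, Gabarap from -0.22 to 0.11, Sqstm1 from -0.030 to 0.14, Nbr1 from -0.025 to 0.31 and Bnip3l from -0.15 to 0.053. Counting error was 2.65% at the lowest member.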
